A study of Arabidopsis thaliana with 8 samples.

Results

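TCH2, TCH3 and TCH4, the touch genes of Arabidopsis thaliana, and 6 genes of the EXORDIUM family (EXO, PHI-1, EXL2, EXL3, EXL4 and EXL5) were followed through mRNA sequencing of silencing mutants. These 9 genes were picked by their locus identifiers from 34133 entries in each table. The mom1 values of TCH4, EXO and PHI-1 were known when the 9 were drawn up, so the values below describe these libraries and test nothing.

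Seedlings of the Col-0 background were 10 days old and had grown on plates with MS medium at 22 °C, in days of 16 h light and 8 h dark. The mutant groups were mom1 (2 libraries) and, with 1 library each, the genotypes labelled pial1/2, nrpe1, pial2 and mom1pial2, and the controls were wild type (WT, 2 libraries). MOM1 is a nuclear protein needed to keep transposons and repeats silent. PIAL1 and PIAL2 are related to SUMO E3 ligases, and NRPE1 is the catalytic subunit of polymerase V, which acts in RNA-directed DNA methylation. No allele name is in the labels, and nothing there says that the replicates were separate cultures. What the spread between them measures was not tested. Between the 2 WT libraries, 3116 of 20894 genes at 1 FPKM or more in any library differed at least 2-fold on FPKM + 1. The first library set holds mom1 replicate 1, pial1/2, nrpe1 and WT replicate 1, and the second set holds mom1 replicate 2, pial2, mom1pial2 and WT replicate 2. Every comparison with WT was made within a set, where 3 mutant tables share 1 WT library. Levels are the authors' FPKM, fragments scaled to transcript length and library size, and each log2 ratio was formed after adding 1 to both values. A gene is said to have risen or fallen where the authors' deposited q-value was below 0.05, which compares 1 library with 1 and carries no replicate spread.

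MOM1 itself stood at 1.15 to 1.61 FPKM in mom1 and mom1pial2 and at 4.13 to 6.10 FPKM elsewhere. PIAL2 was at 1.96 FPKM in pial2 and 2.13 FPKM in mom1pial2, and NRPE1 at 1.16 FPKM in nrpe1. In the library labelled pial1/2, PIAL2 was at 4.79 FPKM and PIAL1 at 11.3 FPKM, against 6.50 and 11.8 FPKM in WT replicate 1, so total FPKM does not check that label. Fragment numbers are unknown, but the smallest FPKM steps made 1 fragment in mom1 replicate 1 worth 0.666 times 1 in WT replicate 1, and 1 to 1.13 times in the other 5 tables. All 6 root markers and all 4 leaf markers were above 0 in every library.

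Plants answer touch, wind and rain within minutes by raising a small group of transcripts, and slow or shorten their growth when the stimulus is repeated. TCH2 (also CML24) and TCH3 (also CML12) encode calmodulin-like calcium sensors. TCH4 (also XTH22) encodes a xyloglucan endotransglucosylase/hydrolase, an enzyme that cuts and rejoins the xyloglucan chains between cellulose microfibrils of the cell wall. EXO is a secreted protein that promotes cell expansion and responds to brassinosteroids, the steroid hormones of plant growth, which also induce TCH4. PHI-1 (also EXL1) is a relative of EXO studied for growth under low carbon supply. EXL2, EXL3, EXL4 and EXL5 are further relatives of EXO.

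The promoters are shown for the 4 genes that fell in both mom1 tables and for TCH2, whose window holds the most motif matches. Each window is the 250 bases before the RefSeq gene start (TAIR10.1 genome), written 5′ to 3′ on the gene's strand, with motif matches in capitals.
TCH4: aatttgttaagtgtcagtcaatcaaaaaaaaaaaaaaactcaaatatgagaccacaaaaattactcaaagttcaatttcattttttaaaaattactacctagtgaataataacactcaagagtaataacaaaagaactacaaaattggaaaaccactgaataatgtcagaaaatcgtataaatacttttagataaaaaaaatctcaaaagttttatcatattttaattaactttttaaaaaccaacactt
EXO: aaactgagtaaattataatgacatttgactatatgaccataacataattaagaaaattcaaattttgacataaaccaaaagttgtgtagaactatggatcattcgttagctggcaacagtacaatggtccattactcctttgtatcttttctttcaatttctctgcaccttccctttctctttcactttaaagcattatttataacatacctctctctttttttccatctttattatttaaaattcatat
PHI-1: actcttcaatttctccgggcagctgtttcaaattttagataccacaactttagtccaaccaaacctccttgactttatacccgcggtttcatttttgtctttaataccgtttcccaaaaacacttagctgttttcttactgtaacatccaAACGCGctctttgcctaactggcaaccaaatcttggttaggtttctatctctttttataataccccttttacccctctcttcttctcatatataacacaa
EXL5: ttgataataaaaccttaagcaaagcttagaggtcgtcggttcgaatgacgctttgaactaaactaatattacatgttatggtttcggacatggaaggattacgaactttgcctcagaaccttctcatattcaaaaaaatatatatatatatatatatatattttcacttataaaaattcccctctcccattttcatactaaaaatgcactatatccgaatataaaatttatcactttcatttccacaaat
TCH2: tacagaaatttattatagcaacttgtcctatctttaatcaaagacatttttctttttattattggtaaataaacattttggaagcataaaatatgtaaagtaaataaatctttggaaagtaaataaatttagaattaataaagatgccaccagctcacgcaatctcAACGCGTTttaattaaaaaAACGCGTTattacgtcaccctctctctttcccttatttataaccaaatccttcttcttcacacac
The windows lie at chr5:23308681-23308930 (minus strand, TCH4), chr4:5739969-5740218 (plus strand, EXO), chr1:12851733-12851982 (plus strand, PHI-1), chr2:7496293-7496542 (minus strand, EXL5) and chr5:14999620-14999869 (minus strand, TCH2). The RefSeq start lies 398 bases upstream of the interval in the deposited tables for TCH4, 276 for EXL5, 78 for EXO, 14 for PHI-1 and 0 for TCH2, so a window need not hold the same part of each promoter. Both strands were searched for CACGTG (the G-box), CGCGTT (the rapid stress response element), CGTGCG and CGTGTG (forms of the brassinosteroid response element) and AATATCT (the core of the evening element of the clock). None of these letters occurred in the TCH4, EXO and EXL5 windows. The PHI-1 window held CGCGTT once, 100 to 95 bases before the start. In the TCH2 window the capitals are a pair of palindromes, each of which holds CGCGTT on both strands with the matches overlapping, between 84 and 58 bases before the start. CGCGTT occurred in 2 of the 9 windows and in 2.59% of 27443 protein-coding promoters. Among the windows not printed, TCH3 held CGTGTG, found in 5.37% of promoters, and EXL4 held AATATCT, found in 10.0%. The RefSeq start lies 792 bases upstream of the deposited interval for TCH3, whose window overlaps the neighbouring gene CML10, and 154 for EXL4. The shares over all promoters were 6.49% for CACGTG and 1.57% for CGTGCG, and 0 of the 9 windows held either.

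In mom1, TCH4, EXO, PHI-1 and EXL5 fell in both sets, and TCH2, EXL2 and EXL4 were not called. EXL3 fell in the first set and was not called in the second, and TCH3 lay on opposite sides of WT in the 2 sets. The authors' q-values called 5 of 9 genes down in the mom1 replicate 1 table, where 1.12% of all tested genes were called down, and 4 of 9 in the mom1 replicate 2 table, where the share was 1.36%. TCH4, EXO, PHI-1 and EXL5 were the 4 of 9 called down in both tables, against 0.25% of the genes tested in both. No member rose in either mom1 table, with 0.999% and 0.979% of all tested genes called up. The choice of members used these contrasts, so nothing is read from the shares. By limma over both mom1 ratios none of the 9 genes passed an adjusted p of 0.05, with adjusted p from 0.184 for TCH4 to 0.953 for TCH3, and 0.0877% of genes passed upward and 0 downward. A limma fit to all 8 libraries, added after the data were seen, sets 3 libraries with a mom1 lesion against 5 without and calls TCH4, EXO and PHI-1, 3 of 9, down, against 0.0585% of all genes, and none up, against 0.156%.

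**Figure D1:**
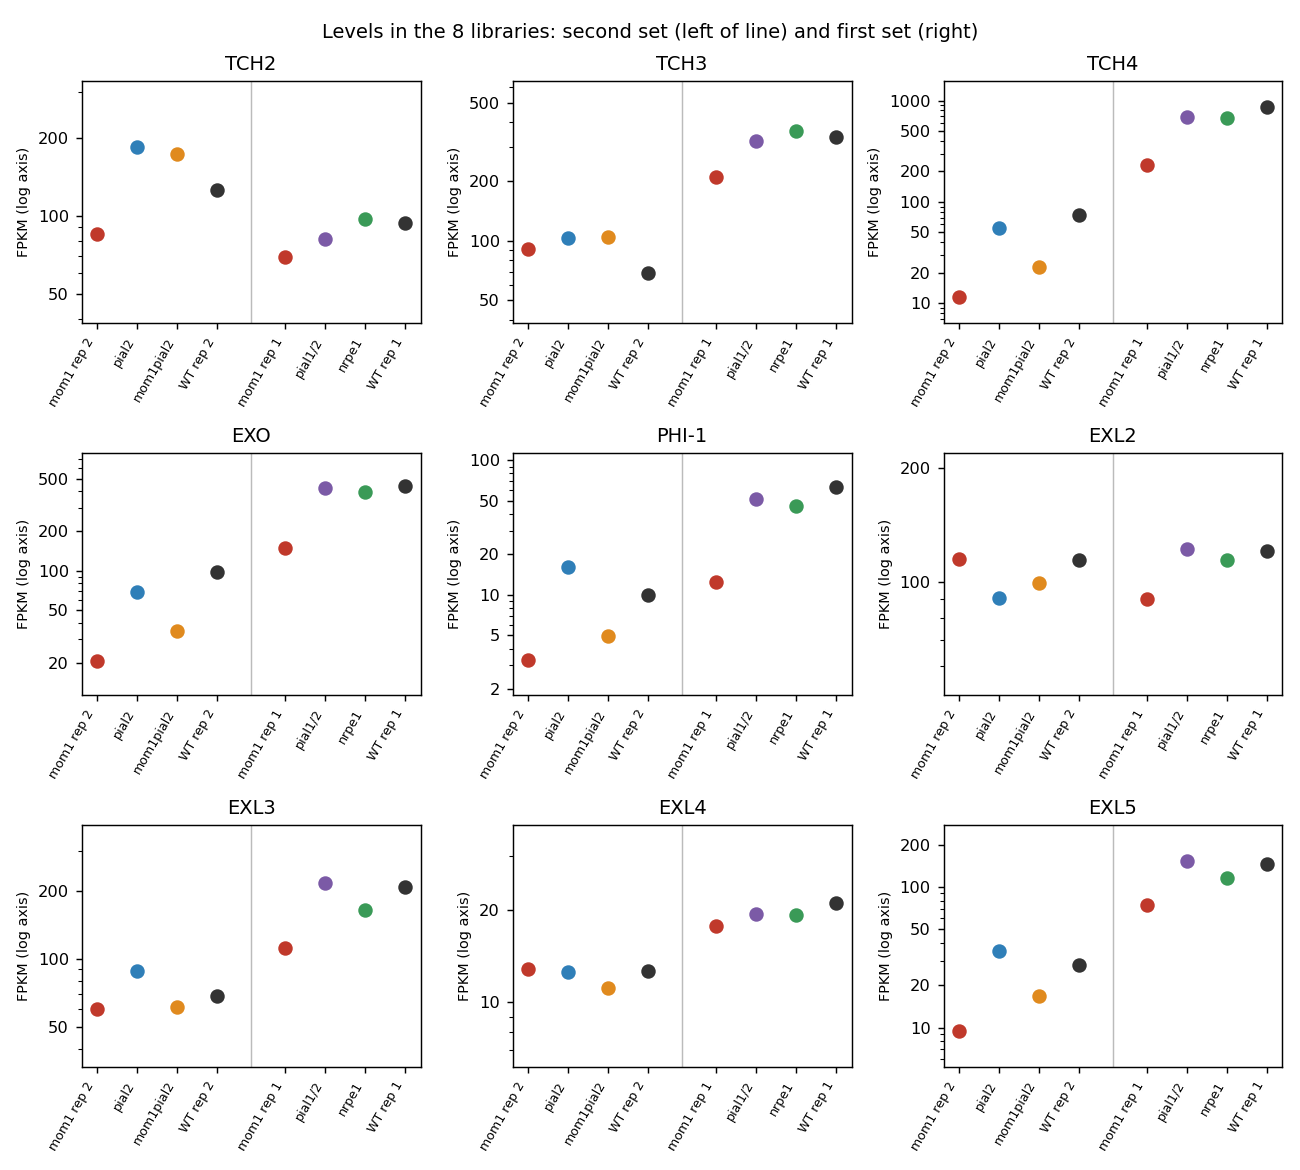
FPKM of each gene in the 8 libraries, on a log axis, 1 point per library, with the second set left of the grey line and the first set right of it and WT last in each set. TCH4 was at 11.5 FPKM in mom1 replicate 2 and 231 FPKM in mom1 replicate 1, below every other library of its set, while EXL2 lay between 90.3 and 122 FPKM in all 8.

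TCH4 (AT5G57560, chromosome 5, 23307130 to 23308282, minus strand) was the most abundant of the 9 transcripts in WT replicate 1. In the first set it stood at 231 FPKM in mom1 replicate 1, 692 in pial1/2, 676 in nrpe1 and 867 in WT replicate 1. In the second set it stood at 11.5 FPKM in mom1 replicate 2, 55.3 in pial2, 22.7 in mom1pial2 and 73.5 in WT replicate 2. The libraries with a mom1 lesion were the lowest of each set, without overlap with the rest of that set. The share of all genes with this order was not counted, and TCH4 was picked with its mom1 values known. The level in mom1 was 0.266 times that in WT in the first set and 0.159 times in the second. The log2 ratios on FPKM + 1 were -1.91 and -2.55, with a mean of -2.23 ± 0.46 (SD, n = 2 tables). TCH4 also fell in mom1pial2, to 0.309 times the WT level. Its log2 ratios were -0.32 in pial1/2, -0.36 in nrpe1 and -0.40 in pial2, with q-values of 0.188, 0.0934 and 0.195 in the authors' deposited tables.

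TCH4 lies beside XTH12, XTH13 and XTH25, which are other members of the xyloglucan endotransglucosylase/hydrolase family. These neighbours were far less abundant, at 1.79 to 5.92 FPKM in WT replicate 1. XTH25 had mom1 log2 ratios of -0.72 in the first set and -1.22 in the second, and the authors' deposited tables called it down in mom1 replicate 2 (0.402 against 2.31 FPKM) and in mom1pial2 (0.218 against 2.31 FPKM). XTH12 was at -0.25 and -0.60 and XTH13 at -0.30 and -0.16, and neither was called in any table.

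TCH3 (AT2G41100, chromosome 2, 17137829 to 17139612, plus strand) encodes a calcium sensor with several EF-hand repeats. Its levels in the first set were 211 FPKM in mom1 replicate 1, 319 in pial1/2, 358 in nrpe1 and 334 in WT replicate 1. In the second set they were 90.9 FPKM in mom1 replicate 2, 104 in pial2, 105 in mom1pial2 and 69.2 in WT replicate 2. The mom1 library was thus the lowest of the first set, while WT was the lowest of the second. The log2 ratios of -0.66 in mom1 replicate 1 and 0.41 in mom1 replicate 2 averaged -0.12 ± 0.76 (SD, n = 2 tables). The authors' deposited tables called TCH3 in no mutant, and the lowest q-value was 0.0852, in pial2. Of the exon windows of 50 bases in TCH3, 6.71% occur more than once in the genome, repeats within the gene included, against 0% in each of the other 8 genes.

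TCH2 (AT5G37770, chromosome 5, 14998854 to 14999619, minus strand) encodes the smaller calcium sensor CML24. The first set held 69.3 FPKM in mom1 replicate 1, 81.3 in pial1/2, 97.0 in nrpe1 and 93.4 in WT replicate 1. The second set held 85.0 FPKM in mom1 replicate 2, 183 in pial2, 172 in mom1pial2 and 126 in WT replicate 2. The mom1 library was the lowest in both sets, by log2 ratios of -0.42 and -0.54, with q-values of 0.244 and 0.0935 in the authors' deposited tables. TCH2 rose in pial2 (log2 ratio 0.54, q = 0.0304 in the authors' deposited table). Its ratio was 0.45 in mom1pial2, not called (q = 0.261), so that the double mutant lay above WT where mom1 lay below it. Among the neighbours of TCH2 and TCH3, the calmodulin genes CAM1 and CAM2 had mom1 log2 ratios between -0.15 and 0.05. CML10, next to TCH3, stood at 120 FPKM against 83.2 FPKM in WT in the first set and 92.6 against 99.1 FPKM in the second, and was called up in mom1 replicate 1 and not in mom1 replicate 2.

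EXO (AT4G08950, chromosome 4, 5740297 to 5741524, plus strand) followed TCH4 closely. Its levels were 149 FPKM in mom1 replicate 1, 422 in pial1/2, 394 in nrpe1 and 437 in WT replicate 1. They were 20.5 FPKM in mom1 replicate 2, 69.1 in pial2, 34.6 in mom1pial2 and 97.8 in WT replicate 2. As for TCH4, the libraries with a mom1 lesion were the lowest of each set. The mom1 level was 0.341 times that of WT in the first set and 0.213 times in the second (mean log2 ratio -1.86 ± 0.44, SD, n = 2 tables), and EXO fell in mom1pial2 to 0.353 times. In pial2 the log2 ratio was -0.49 and the authors' q-value 0.0622. The ratios in pial1/2 and nrpe1 were -0.04 and -0.15, and neither was called by the authors.

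**Figure D2:**
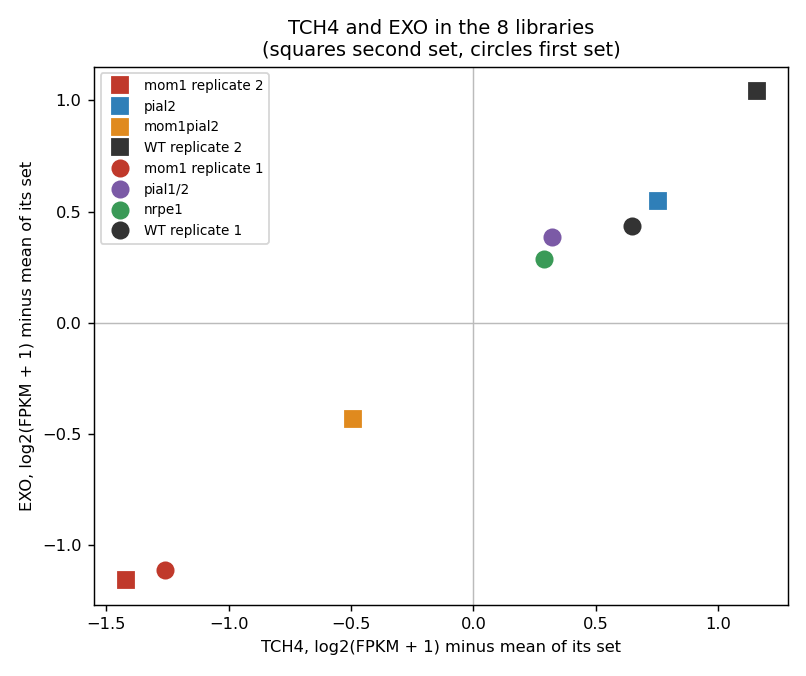
TCH4 on the horizontal axis and EXO on the vertical axis, as log2(FPKM + 1) minus the mean of the library's set, 1 point per library, with squares for the second set and circles for the first. The points lie near a line with Pearson r = 0.995 over the 8 libraries, with both mom1 libraries and mom1pial2 at the low end.

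PHI-1 (AT1G35140, chromosome 1, 12851997 to 12853128, plus strand) was the least abundant of the 9 genes in WT replicate 2 and in every library with a mom1 lesion. The first set had 12.5 FPKM in mom1 replicate 1, 52.0 in pial1/2, 45.5 in nrpe1 and 63.2 in WT replicate 1. The second set had 3.26 FPKM in mom1 replicate 2, 16.2 in pial2, 4.94 in mom1pial2 and 10.0 in WT replicate 2. The libraries with a mom1 lesion were again the lowest, and pial2 was the highest of its set. PHI-1 fell to 0.197 and 0.331 times the WT level in the mom1 tables (mean log2 ratio -1.80 ± 0.64, SD, n = 2 tables) and to 0.492 times in mom1pial2. It rose in pial2 to 1.61 times (q = 0.0257 in the authors' deposited table) and fell in nrpe1 to 0.720 times (q = 0.00481 there). PHI-1 was the only one of the 9 genes that the authors' tables called in nrpe1.

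EXL5 (AT2G17230, chromosome 2, 7494536 to 7496016, minus strand) was at 73.8 FPKM in mom1 replicate 1, 154 in pial1/2, 116 in nrpe1 and 145 in WT replicate 1. In the second set it was at 9.52 FPKM in mom1 replicate 2, 35.1 in pial2, 16.8 in mom1pial2 and 27.7 in WT replicate 2. The order was that of PHI-1 in the second set, with pial2 above WT and both libraries with a mom1 lesion below. EXL5 fell in mom1 to 0.510 and 0.350 times WT (mean log2 ratio -1.19 ± 0.33, SD, n = 2 tables) and in mom1pial2 to 0.605 times. Its log2 ratio in pial2 was 0.33, not called (q = 0.378 in the authors' deposited table).

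EXL3 (AT5G51550, chromosome 5, 20939494 to 20940895, minus strand) had its largest mom1 difference in the first set. It stood at 112 FPKM in mom1 replicate 1, 217 in pial1/2, 164 in nrpe1 and 207 in WT replicate 1, and it fell in that mom1 table (log2 ratio -0.88, q = 4.75e-06 in the authors' deposited table). In the second set it stood at 60.3 FPKM in mom1 replicate 2, 88.4 in pial2, 61.5 in mom1pial2 and 68.9 in WT replicate 2, with a mom1 log2 ratio of -0.16 that the authors did not call. The mean of both tables was -0.52 ± 0.51 (SD, n = 2 tables). The libraries with a mom1 lesion were the lowest of each set for EXL3 too, although mom1pial2 was not called either. Whether the mom1 difference itself differs between the sets was not tested.

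EXL2 (AT5G64260, chromosome 5, 25703929 to 25705316, plus strand) and EXL4 (AT5G09440, chromosome 5, 2938347 to 2939461, plus strand) were called by the authors in no table. EXL2 had 90.3 FPKM in mom1 replicate 1, 122 in pial1/2, 114 in nrpe1 and 121 in WT replicate 1. Its second set had 115 FPKM in mom1 replicate 2, 90.7 in pial2, 99.1 in mom1pial2 and 114 in WT replicate 2. EXL2 was about as abundant as EXL5 in WT replicate 1, yet its mom1 log2 ratios were -0.41 and 0.037. EXL4 had 17.8 FPKM in mom1 replicate 1, 19.5 in pial1/2, 19.3 in nrpe1 and 21.1 in WT replicate 1, and 12.9, 12.6, 11.1 and 12.7 FPKM in mom1 replicate 2, pial2, mom1pial2 and WT replicate 2. All 4 libraries of the second set lay within 11.1 to 12.9 FPKM. The remaining relatives were EXL7, at 1.82 to 4.77 FPKM with mom1 log2 ratios of 0.12 and -0.16, and EXL6, at 0.108 FPKM or less.

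**Figure D3:**
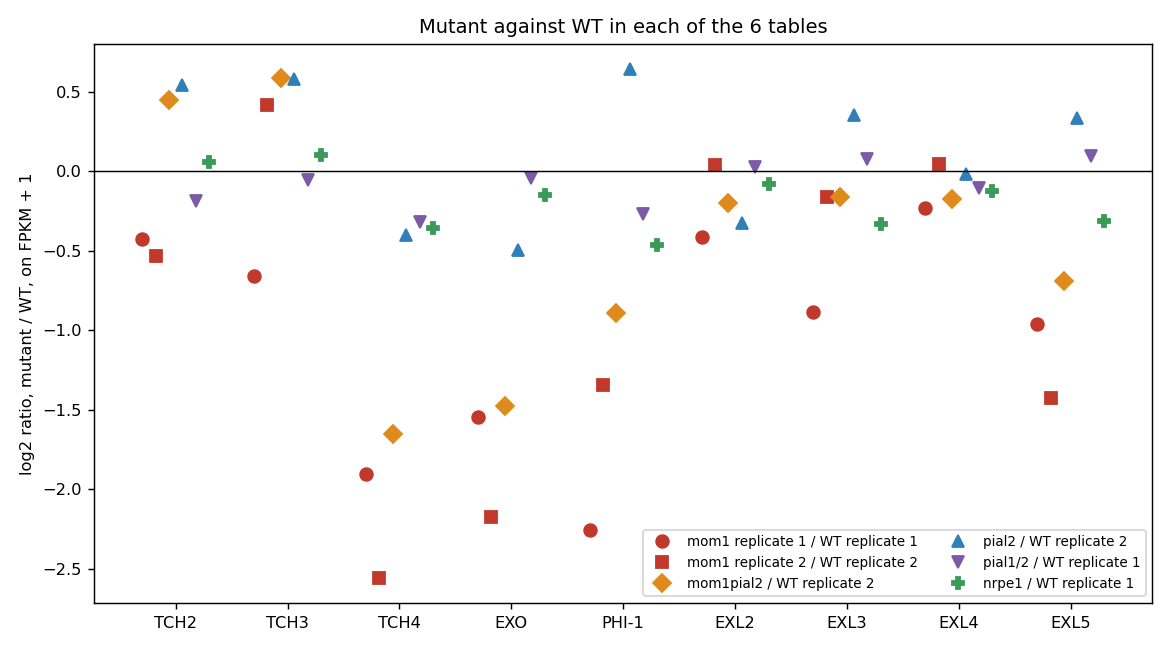
Log2 ratio of each mutant library to the WT library of its table, on FPKM + 1, for the 9 genes and the 6 tables, 1 point per table. For TCH4, EXO, PHI-1 and EXL5 the mom1 and mom1pial2 points lie lowest, from -0.69 for EXL5 in mom1pial2 to -2.55 for TCH4 in mom1 replicate 2, and the other 3 mutants lie between -0.49 and 0.64.

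The other mutants carry lesions in PIAL genes, whose products act with MOM1, or in polymerase V. In mom1pial2 the authors' q-values called 4 of 9 genes down, TCH4, EXO, PHI-1 and EXL5, where 1.16% of all tested genes were called down, and none up, against 0.824%. This table shares WT replicate 2 with those of mom1 replicate 2 and pial2. Set directly against pial2, in which WT plays no part, mom1pial2 had log2 differences of -1.25 for TCH4, -0.98 for EXO, -1.53 for PHI-1 and -1.02 for EXL5, with no replicate of either. Set against mom1 replicate 2, mom1pial2 was higher by 0.90 for TCH4, 0.70 for EXO, 0.45 for PHI-1 and 0.73 for EXL5. TCH2 stood further apart, with mom1pial2 0.98 above mom1 replicate 2 and -0.09 from pial2. In pial2, 2 of 9 genes rose, TCH2 and PHI-1, against 0.844% of all tested genes, and none fell, against 1.6%. In the library labelled pial1/2, whose label total FPKM does not check, 0 of 9 genes were called in either direction, against 0.7% up and 0.489% down over all tested genes. In nrpe1, 1 of 9 genes fell, against 0.67%, and none rose, against 1.2%. The members' log2 ratios ran from -0.32 to 0.09 in pial1/2 and from -0.47 to 0.10 in nrpe1.

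Most of the 9 genes were lower in the second set than in the first in every library. The tables were each normalized on their own, the median gene stood at -0.04 between the WT libraries (log2, the second set minus the first), and no test was made across sets. TCH4 ranged over 11.5 to 73.5 FPKM in the second set, against 231 to 867 FPKM in the first, and WT replicate 1 had 11.8 times the level of WT replicate 2. It ranked 2172nd from the top in WT replicate 2 and 99th in WT replicate 1, where 19481 and 19552 genes reached 1 FPKM. EXO ranged over 20.5 to 97.8 FPKM against 149 to 437, EXL5 over 9.52 to 35.1 against 73.8 to 154, and TCH3 over 69.2 to 105 against 211 to 358. EXL3 ranged over 60.3 to 88.4 FPKM against 112 to 217, and EXL4 over 11.1 to 12.9 against 17.8 to 21.1. For these 6 of 9 genes the 4 libraries of the second set all lay below the 4 of the first, as they did for 34.9% of the 20894 genes at 1 FPKM or more in any library. With a median at least 2-fold lower as well, it was 5 of 9 genes, against 7.61%. PHI-1 ranged over 3.26 to 16.2 FPKM against 12.5 to 63.2, an overlap made by pial2 and mom1 replicate 1. TCH2 (85.0 to 183 against 69.3 to 97.0 FPKM) and EXL2 (90.7 to 115 against 90.3 to 122 FPKM) overlapped too, and 0 of 9 genes lay wholly above, against 30% of all genes.

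The set difference can be taken in WT and in mom1. For TCH4 it was -4.22 (log2) between the mom1 libraries and -3.54 between the WT libraries, for EXO -2.80 and -2.15, and for EXL5 -2.83 and -2.34. These 3 genes differed more between the mom1 libraries. PHI-1 was at -1.66 in mom1 and -2.54 in WT, TCH3 at -1.21 and -2.25, and EXL3 at -0.88 and -1.58, so these differed less between the mom1 libraries. EXL4 was at -0.44 in mom1 and -0.69 in WT and TCH2 at 0.29 and 0.43. EXL2 lay on opposite sides of 0, at 0.34 in mom1 and -0.08 in WT.

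**Figure D4:**
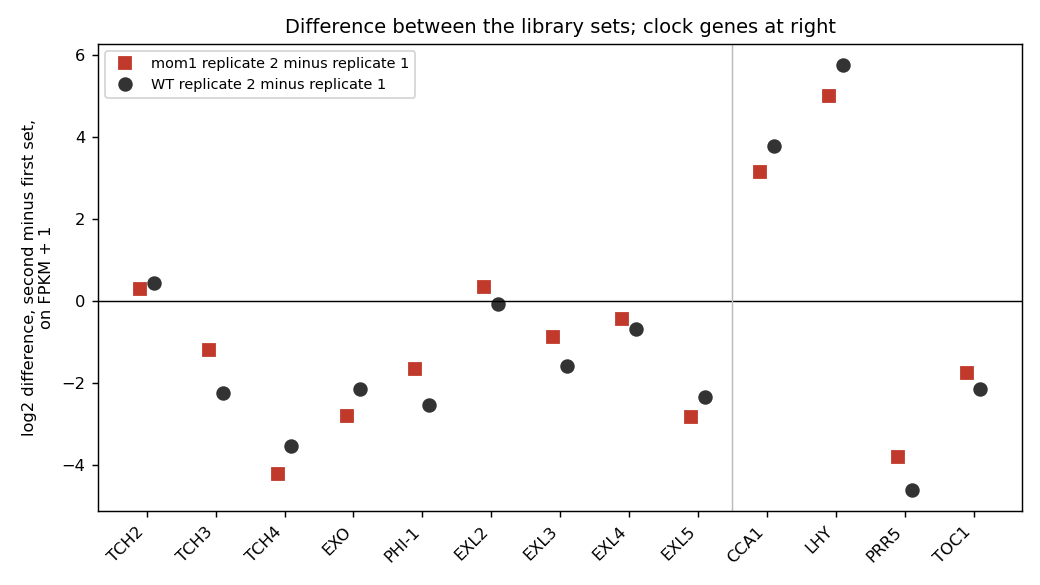
Log2 difference of the second set minus the first, on FPKM + 1, between the mom1 libraries (squares) and between the WT libraries (circles), for the 9 genes and, right of the line, 4 clock genes. TCH4 lies at -4.22 in mom1 and -3.54 in WT, PRR5 at -3.81 and -4.61, and CCA1 at 3.13 and 3.78.

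Clock genes moved with the sets, and their part in the differences was not tested. The summed level of the 5 morning genes (CCA1, LHY, RVE8, RVE1 and PRR9) was 377 to 438 FPKM in the second set and 23.2 to 38.5 FPKM in the first. For the 5 evening genes (TOC1, PRR5, GI, ELF4 and LUX) it was 28.3 to 29.8 FPKM against 139 to 198 FPKM. Within the first set mom1 replicate 1 had the highest morning sum, 38.5 FPKM against 24.6 in WT replicate 1, and the lowest evening sum, 139 against 186 FPKM. Within the second set the morning sums were 408 FPKM in mom1 replicate 2 against 438 in WT replicate 2. The evening sums there were 29.8 against 29.2 FPKM. The summed level of the 6 root markers was 48.4 FPKM in mom1 replicate 2, 51.5 in pial2, 85.5 in mom1pial2 and 122 in WT replicate 2. In the first set it was 60.4 FPKM in mom1 replicate 1, 54.6 in pial1/2, 65.5 in nrpe1 and 62.4 in WT replicate 1. Of the 6 root markers (PRP3, THAS, THAH, THAD, COBL9 and EXPA7), 4 fell in mom1 replicate 2, 4 in pial2 and 3 in mom1pial2. The shares over all tested genes were 1.36%, 1.6% and 1.16%. These tables share WT replicate 2, which had the highest root marker sum of all libraries, so the counts are not independent of each other. In the first set 0 fell, against 1.12% of all in mom1 replicate 1, 0.489% in pial1/2 and 0.67% in nrpe1. THAS, THAH and THAD, close together on chromosome 5, were at 3.64, 7.55 and 8.16 FPKM in mom1 replicate 2. Their levels in WT replicate 2 were 13.9, 26.2 and 35.2 FPKM. PRP3 was at 22.3 against 37.3 FPKM there, COBL9 at 1.89 against 2.84 and EXPA7 at 4.94 against 6.92. The markers' part in the second-set results was not tested. The 4 leaf markers summed to 17973 to 19302 FPKM in the second set and 24318 to 26990 FPKM in the first. In whole seedlings, fewer cells of a type and less RNA per cell cannot be told apart.

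Relatives of TCH4 were described from the other 32 genes of its family, of which 28 reached 1 FPKM in WT or mom1. In mom1 replicate 1, 11 of 29 tested genes fell and 0 rose, where 1.12% of all tested genes fell, with a median log2 ratio of -0.33 over 28 measured genes against -0.01 over all genes. In mom1 replicate 2, 3 of 28 fell and 0 rose, where 1.36% of all fell, with a median of -0.30 against 0.01. XTH16 (49.97 against 109 FPKM, then 10.2 against 19.1) and XTH27 (86.2 against 132 FPKM, then 86.7 against 158) fell in both, with mean log2 ratios of -0.97 ± 0.20 and -0.72 ± 0.16 (SD, n = 2 tables). XTH23, a close relative of TCH4, fell in the first set, at 4.28 against 13.0 FPKM, and was at 2.86 against 4.51 FPKM in the second, not called. In nrpe1 5 of 29 tested genes fell (0.67% of all), in mom1pial2 2 of 28 (1.16%) and in pial2 3 of 29 (1.6%), where 1 rose (0.844%). In pial1/2 1 of 29 fell (0.489%) and 1 rose (0.7%). The set difference of the family between the WT libraries had a median of -0.57 over 28 genes, against -0.04 over all genes, and 14 of those 28 genes lay wholly lower in the second set, against 34.9% of all genes.

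A list of 6 genes that rise when carbon is short was set beside PHI-1. DIN10, a gene induced in the dark, and BT2, a sugar-repressed gene for a BTB-domain protein, fell in both mom1 tables. DIN10 stood at 106 against 317 FPKM and 30.9 against 59.0 FPKM, and BT2 at 141 against 235 FPKM and 57.3 against 86.7 FPKM. Of the 6 genes, 4 fell in mom1 replicate 1, 4 in mom1 replicate 2, 5 in mom1pial2, 3 in pial2, 3 in nrpe1 and 0 in pial1/2, and none rose in any table. Over all tested genes 1.12%, 1.36%, 1.16%, 1.6%, 0.67% and 0.489% fell in the same order of tables. The list's median log2 ratios were -0.68, -0.63, -0.79, -0.51, -0.42 and -0.11 in that order, against medians within 0.01 of 0 over all genes. The bZIP1 transcription factor gene was at 24.3 FPKM in mom1 replicate 2, 31.0 in pial2, 25.3 in mom1pial2 and 46.9 in WT replicate 2, and it fell in those 3 tables and in nrpe1. DIN1, a dark-induced gene, had mom1 log2 ratios of -0.65 and -0.70 and fell in the second set. All 6 were lower in WT replicate 2 than in WT replicate 1, with a median of -1.51.

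Other calcium sensors were listed beside TCH2 and TCH3. Of the 18 calmodulin and calmodulin-like genes, 0 fell in any table, with mom1 medians of 0.01 in the first set and 0.05 in the second. The median log2 ratio was 0.30 in mom1pial2, with 16 of 17 measured genes above 0, and 0.17 in pial2, with 15 of 17 above 0, against 0.00 and 0.01 over all genes. The authors called 1 of 18 up in mom1 replicate 1, 2 in nrpe1, 1 in pial2 and 1 in mom1pial2, where 0.999%, 1.2%, 0.844% and 0.824% of all tested genes rose. CML38 was at 28.1 FPKM against 25.0 FPKM and 16.3 against 10.3 FPKM in the mom1 tables and rose in nrpe1 (38.2 against 25.0 FPKM) and in mom1pial2 (21.9 against 10.3 FPKM). CML37 and CML39 had mean mom1 log2 ratios of 0.26 ± 0.20 and -0.31 ± 0.34 (SD, n = 2 tables). The 6 genes for mechanosensing proteins (MSL10, MCA1, MCA2) and for CAMTA factors, which bind calmodulin, were not called in any table. CAMTA3, MSL10 and CAMTA1 had mean mom1 log2 ratios of -0.11, 0.11 and -0.08.

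Alpha-expansins, which loosen the cell wall without cutting its polymers, were called up in mom1 where they were called, each in 1 of the tables only. In mom1 replicate 1, 2 of 18 tested genes rose and 0 fell, where 0.999% of all tested genes rose. In mom1 replicate 2, 1 of 18 rose and 0 fell, where 0.979% of all rose. In both mom1 tables together 0 of 18 rose, where 0.518% of all genes tested in both rose. In mom1pial2, 0 of 18 rose and 0 fell, where 0.824% and 1.16% of all did. In pial2, 0 of 18 rose and 1 fell, where 1.6% of all fell, and 11 of 17 measured genes lay below 0 with a median of -0.07. The mean mom1 log2 ratio was above 0 in 14 of 17 measured genes, with a median of 0.26 against 0.00 over all genes. EXPA1 was at 135 against 91.7 FPKM and 229 against 177 FPKM, EXPA16 at 2.67 against 2.25 and 15.4 against 8.82 FPKM, and EXPA17 at 5.05 against 4.23 and 4.28 against 2.52 FPKM. Only EXPA16 of these was called, in mom1 replicate 2. Among 16 genes of the brassinosteroid pathway and its targets, 0 were called in mom1 replicate 1, and 1 rose in mom1 replicate 2, IAA19, named after its values were seen. PRE1, a growth-promoting helix-loop-helix gene, had a mean log2 ratio of 0.52 ± 0.08 in mom1 (SD, n = 2 tables), the aquaporin gene TIP2;1 -0.41 ± 0.22 and the biosynthesis gene BR6OX2 -0.38 ± 0.00013. The list's mom1 medians were -0.23 and -0.19. In nrpe1 3 of 16 fell and 0 rose, in pial2 1 fell and 0 rose, and in mom1pial2 2 rose and 0 fell, where 0.67% and 1.6% of all tested genes fell and 0.824% rose.

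**Figure D5:**
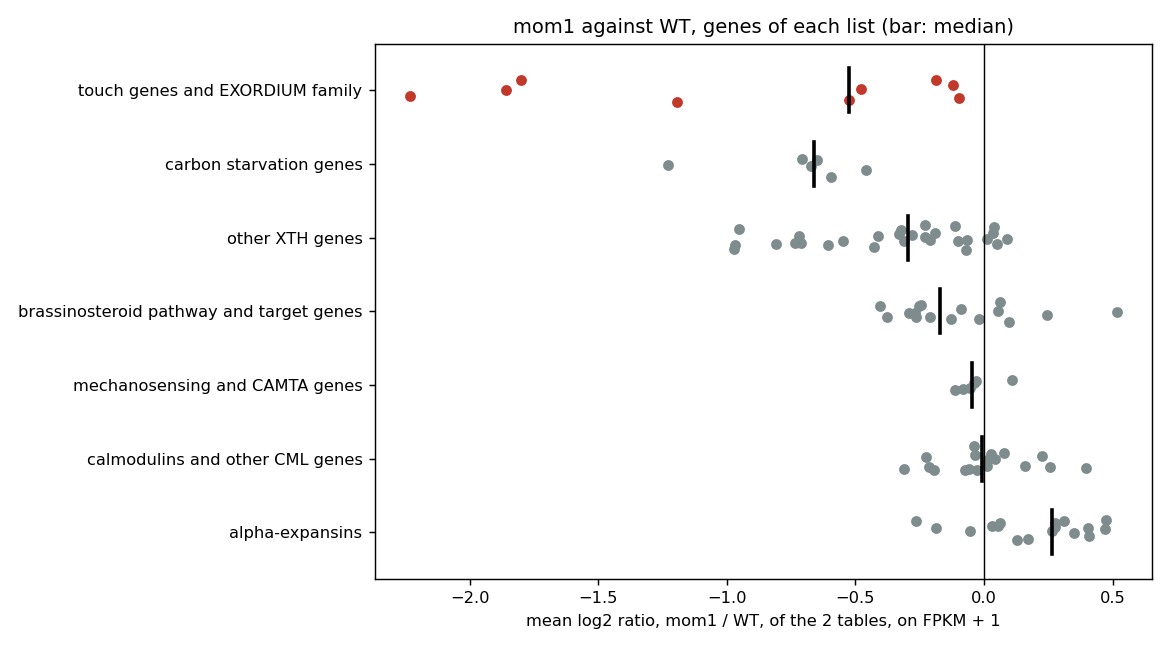
Mean log2 ratio of mom1 to WT over the 2 tables, on FPKM + 1, 1 point per gene at 1 FPKM or more in WT or mom1, for the 9 genes (top row) and 6 lists, with a black bar at each median. The medians are -0.52 for the 9 genes, -0.66 for the carbon starvation genes, -0.30 for the other XTH genes, -0.17 for the brassinosteroid genes, -0.05 for mechanosensing and CAMTA genes, -0.01 for calmodulins and 0.26 for alpha-expansins.

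The genes most like TCH4 and EXO were sought over the 8 libraries, with each set centred on its own mean, among 13355 genes that reached 10 FPKM in at least 1 library. The 8 points share 2 WT libraries and 2 library sets. TCH4, EXO and PHI-1 were picked with their mom1 values known, so r is given as a description. EXO was the gene most like TCH4 and TCH4 the gene most like EXO (Pearson r = 0.995). Next to TCH4 came AT1G09660 (r = 0.994), DREB26, a gene for an AP2-domain transcription factor (0.992), AT4G37240 (0.989) and AT4G01210 (0.984). Next to EXO came RNEE/G, an RNase E/G-like gene of the chloroplast (0.987), AT1G09660 (0.986), DREB26 (0.984) and AT4G37240 (0.983). Likeness in r is not likeness in size. DREB26 was at log2 ratios of -1.08 and -1.46 in the mom1 tables and -0.78 in mom1pial2, and AT1G09660 at -0.21, -0.22 and -0.18. Of the other members, EXL5 ranked 31st (r = 0.943) and PHI-1 60th (0.922) for likeness to TCH4, EXL3 646th (0.754) and TCH2 1443rd (0.612), and EXL4, EXL2 and TCH3 had r of 0.475, 0.298 and 0.224.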

How the data were processed

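Polyadenylated RNA of 8 seedling libraries was sequenced. The submitters' processing notes name TopHat2 2.0.12, Bowtie, Cufflinks 2.2.1, Cuffdiff and TAIR10, and read length and strand are not given in the sources used here. The 6 deposited tables hold FPKM per gene, scaled by the authors to the 2 libraries of each table, and per the file headers a p-value and q-value of the authors' test for 21562 to 22230 tested genes. WT levels were taken as the median over the 3 tables of a WT library and ratios within a table. The members and gene lists were chosen with earlier results of these data known. The pair of mom1 log2 ratios (pseudocount 1) entered limma 3.58.1 (R 4.3.3) as an intercept-only model, which blocks on the replicate number as the deposited tables do, over 20517 genes with at least 1 FPKM in WT or mom1, leaving out 67 entries whose estimate failed. On simulated data of this size limma recovered 2% of genes raised 2-fold, 90% raised 4-fold, 86% lowered 4-fold and 98% raised 8-fold, with 10 false calls among 148. The simulation changed 50 genes of each kind and drew its noise from the spread that limma had fitted. The real fit called only 18 genes up and 0 down, and TCH4 at a mean log2 ratio of -2.23 did not pass. The simulated rates therefore need not hold for the 9 genes. Python 3.11.15, pandas 2.3.3 and numpy 2.4.6 did the rest. Named genes were the 9, their tandem neighbours, in each list those called alike in both mom1 tables and the 3 with the largest mean mom1 ratio, and the 5 most like TCH4 and EXO; genes outside this rule are marked in the text or are described only by a level. TAIR10.1 supplied positions upstream of genes; all intervals of the deposited tables end within its chromosomes.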

Additional observations from a re-analysis of the deposited data

Results flagged for a closer look

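TCH3, EXL2 and EXL4 had mom1 ratios of opposite sign in the 2 library sets, and the difference between the sets was not tested. TCH3 was at -0.66 (log2, mom1 minus WT) in the first set and 0.41 in the second. EXL2 was at -0.41 in the first set and 0.037 in the second, and EXL4 at -0.23 and 0.042. Each sign rests on 1 library against 1, and the authors called none of the 6 ratios.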

How the results depend on the processing

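By limma with the replicate block 18 genes rose and 0 fell in mom1 after adjustment over all genes. None of the 9 genes passed (adjusted limma p from 0.184 for TCH4 to 0.953 for TCH3). At an unadjusted limma p under 0.05, 682 genes had a negative ratio and 567 a positive one. With no replicate block the adjusted counts were 0 up and 0 down, and with no filter on low FPKM 0 and 0. The differences between replicates in WT and in mom1 correlated at r = 0.835 across 20517 genes. A fit chosen after seeing the data took all 8 libraries with the set as a block, 3 with a mom1 lesion against 5 without, and gave 32 up and 12 down, among them EXO (log2 -1.54), TCH4 (-1.81) and PHI-1 (-1.69), at limma adjusted p of 0.0286, 0.0332 and 0.0370 by an across-gene fit. Since these genes were chosen on mom1, the p-values are not independent evidence. At a q-value below 0.01 the authors' tables called 0 of 9 genes in pial2, in place of TCH2 and PHI-1. In mom1pial2 they called 3 of 9 in place of 4, without PHI-1 (q = 0.0122 in the authors' deposited table). Of 258 other single values recomputed under an alternative, 246 stayed within the spread between replicates or on their side of the threshold. Another 9 moved further, all of them list medians, 3 crossed the threshold (those of the 8-library fit) and 0 changed sign among called values. Mutants with 1 library have no replicate spread of their own. With no filter or no replicate block the mean mom1 ratios of the 9 genes cannot move, and only their adjusted limma p can. The count that stayed is therefore no measure of how firm the values are. Left out of the 258 were the 9 set differences taken between the mom1 libraries in place of WT, and all 9 moved. Leaving out a replicate of mom1 leaves the ratio of 1 table, which for TCH3 is -0.66 or 0.41 in place of -0.12, and with 2 values no spread can judge that shift. Ratios rest on 1 library each outside WT and mom1, and FPKM gives no counting error.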

Other observations

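Some relatives of the touch genes moved in single mutants, named here after their values were seen. XTH15, a cell wall enzyme gene of the TCH4 family, was at 84.2 FPKM in pial1/2 against 42.1 FPKM in WT replicate 1 and was called up there by the authors, while it fell to 16.5 FPKM in mom1 replicate 1 and to 28.2 FPKM in nrpe1. In the second set it lay between 8.27 and 11.7 FPKM and was called in no table. CML10, the neighbour of TCH3, was at 171 FPKM in nrpe1 against 83.2 FPKM in WT replicate 1, and was called up there. IAA19, an auxin and brassinosteroid response gene, rose in mom1 replicate 2 (33.9 against 21.0 FPKM) and in mom1pial2 (36.5 against 21.0 FPKM). In the first set it was at 8.48 FPKM in mom1 replicate 1 against 12.3 FPKM in WT replicate 1, not called.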
